A study of Mus musculus with 9 samples.

Results

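The genes of the T cell receptor gamma locus were described here in thymic invariant natural killer T (iNKT) cells of the mouse. The table named 10 of them, 4 constant genes (*Tcrg-C1* to *Tcrg-C4*) and 6 variable genes (*Tcrg-V3* to *Tcrg-V7* and *Trgv2*), among 21883 genes in all. They were found by gene symbol. They had been selected from the measured values of these same libraries, in the 2 comparisons given below, so their levels and differences are a description and carry no test.

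RNA was sequenced from sorted thymic iNKT cells on the C57BL/6 background in 9 libraries, 3 in each of 3 groups. WT stage 2 and WT stage 3 cells came from 6-week-old wild-type mice. *Med23*-deficient stage 2 cells came from mice in which *Med23*, a subunit of the Mediator complex that links transcription factors to RNA polymerase II, was deleted by a Cre recombinase under the *Cd4* promoter, that is by the double-positive thymocyte stage. The age of these mice is not in the labels, and no stage 3 library of that genotype is among the 9. iNKT cells were gated as cells that bind a lipid-loaded CD1d tetramer and carry TCR beta, and stage 3 was separated from stage 2 by the surface protein NK1.1. The labels do not say whether the 3 libraries of a group came from separate mice, nor whether a library pooled several. The study's methods mention independent experiments without tying them to single libraries, so the spread between libraries may be technical.

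A T cell carries either an alpha beta or a gamma delta receptor. The gamma chain gene is assembled in the thymus by joining a variable (V) to a joining (J) segment, which is then spliced to a constant (C) gene. In the mouse these segments lie in 4 clusters on chromosome 13, each with its own J segment and C gene. The rearranged gamma genes of alpha beta T cells are usually kept silent or are out of frame. IL-7 receptor signalling through STAT5, RUNX proteins and E proteins are known to act on the locus.

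The members spanned chromosome 13 from 19178024 to 19352756 (mm10). Cluster 1 held *Tcrg-V7*, *Tcrg-V4*, *Tcrg-V6*, *Tcrg-V5* and *Tcrg-C1*, in that order on the plus strand. Cluster 3 held *Tcrg-V3* and *Tcrg-C3*, cluster 2 held *Trgv2* and *Tcrg-C2* on the minus strand, and cluster 4 held *Tcrg-C4*. The V segment of cluster 4 was listed as *Gm16602* (19339989 to 19340454), an identifier to which GENCODE vM21 gives the name *Tcrg-V1*. It was not among the members and is given beside them. All of these genes had the same coordinates in the deposited table and in GENCODE vM21.

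How alike the members are bears on every value below, since the constant genes of clusters 1, 2 and 3 can share reads. The first 120 bases of the first constant exon are shown for all 4 genes from the GENCODE vM21 transcripts (GRCm38, the same assembly as mm10), 5′ to 3′, with each base that differs from *Tcrg-C1* at the same position in capitals. They lie at chr13:19214103-19214222 (plus strand), chr13:19307432-19307551 (minus), chr13:19260885-19261004 (plus) and chr13:19344558-19344677 (plus).
Tcrg-C1: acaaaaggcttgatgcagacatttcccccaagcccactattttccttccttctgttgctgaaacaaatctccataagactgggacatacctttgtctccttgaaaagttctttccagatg
Tcrg-C2: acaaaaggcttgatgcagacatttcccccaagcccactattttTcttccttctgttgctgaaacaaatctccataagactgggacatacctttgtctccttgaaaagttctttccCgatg
Tcrg-C3: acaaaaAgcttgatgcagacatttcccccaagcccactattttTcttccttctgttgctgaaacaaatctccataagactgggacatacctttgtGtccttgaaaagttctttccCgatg
Tcrg-C4: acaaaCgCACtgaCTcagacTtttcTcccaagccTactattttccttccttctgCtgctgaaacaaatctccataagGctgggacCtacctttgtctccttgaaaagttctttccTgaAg
Over the whole exon of 330 bases, *Tcrg-C1* and *Tcrg-C2* were 97.3% identical, *Tcrg-C1* and *Tcrg-C3* 96.1%, and *Tcrg-C1* and *Tcrg-C4* 82.1%. Of all stretches of 50 bases in the *Tcrg-C1*, *Tcrg-C2* and *Tcrg-C3* transcripts, 29.6%, 25.4% and 36.2% also occurred in another constant gene. For *Tcrg-C4* the share was 0%. The stretches of *Tcrg-C1*, *Tcrg-C2* and *Tcrg-C3* were also counted at a longer length. Of their stretches of 100 bases, 3.39%, 0.613% and 4.19% did so. The read length is not given in the sources used here. The division of FPKM between *Tcrg-C1*, *Tcrg-C2* and *Tcrg-C3* is therefore uncertain, to a degree that depends on read length. The sum over all 4 constant genes is given as well.

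The ends of the V exons show which variable genes can be told apart. The last 60 bases are printed from the same source, with the codon of the conserved cysteine, where the junction with J begins, in capitals. They lie at chr13:19185447-19185506, chr13:19192666-19192725, chr13:19243242-19243301 and chr13:19340395-19340454 on the plus strand and, for *Trgv2*, at chr13:19336573-19336632 on the minus strand.
Tcrg-V4: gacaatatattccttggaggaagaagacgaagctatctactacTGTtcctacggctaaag
Tcrg-V5: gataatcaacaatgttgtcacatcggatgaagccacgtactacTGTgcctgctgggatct
Tcrg-V3: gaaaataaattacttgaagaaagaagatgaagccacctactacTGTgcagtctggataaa
Tcrg-V1: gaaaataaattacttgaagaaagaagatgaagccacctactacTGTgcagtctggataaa
Trgv2: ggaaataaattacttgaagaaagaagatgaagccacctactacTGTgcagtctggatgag
*Tcrg-V3* and *Tcrg-V1* had the same letters over this window, and 22.4% of the 50-base stretches of *Tcrg-V3* occurred in *Tcrg-V1* or *Trgv2*. Of the 100-base stretches of *Tcrg-V3*, 1.97% did. *Tcrg-V4*, *Tcrg-V5*, *Tcrg-V6* and *Tcrg-V7* shared no stretch of 50 bases with another of the V genes compared.

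Values are FPKM, fragments scaled by gene length and by the reads mapped in the library, as the authors deposited them. The scaling is meant to make genes of different length comparable. How well it does so for the short V and J models was not tested. The table holds no read counts, and the depth behind each value is unknown. In its place, between 15584 and 17333 genes had an FPKM above 0 in a library. An exact 0 says only that a gene was listed at 0. Among all genes, 5 were listed at 0 in a single library and at 5 FPKM or more in the other 8.

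The targeted gene, *Med23*, had FPKM values of 5.51, 5.15 and 6.74 in WT stage 2, 7.14, 4.44 and 6.12 in WT stage 3, and 4.80, 3.60 and 3.92 in *Med23*-deficient stage 2 cells. Every deficient library was below every WT stage 2 library, but the difference of -0.41 ± 0.18 (SE) in log2(FPKM + 1) did not pass the test (adjusted p = 0.552, limma with Benjamini-Hochberg adjustment over all genes). The table gives 1 value over the whole gene, which can include reads from undeleted exons. The cells carried their defining markers. *Trac*, the alpha chain constant gene, ranged from 264.67 to 392.28 FPKM. *Zbtb16*, which encodes the iNKT factor PLZF, ranged from 68.08 to 112.43 FPKM in both stage 2 groups. In WT stage 3 *Zbtb16* was lower, at 22.72 to 33.37 FPKM (adjusted p = 0.0122 against WT stage 2, limma). *Klrb1c*, which encodes NK1.1, was at 57.27 to 95.09 FPKM in stage 3, from 7.65 to 26.24 in WT stage 2 and from 2.61 to 4.60 in *Med23*-deficient cells. The labels give no batch, so a batch between the genotypes cannot be told apart from the genotype.

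Gamma constant transcripts were abundant in WT iNKT cells at both stages. *Tcrg-C2* was at 133.77, 123.99 and 119.11 FPKM in WT stage 2, 137.73, 131.58 and 121.41 in WT stage 3, and 1.48, 0.23 and 0.41 in *Med23*-deficient stage 2 cells. *Tcrg-C1* was at 98.75, 125.41 and 110.68 FPKM, then 99.58, 102.69 and 97.31 FPKM, then 3.31, 0.83 and 5.47 FPKM in the same order. For both genes the WT groups overlapped, and all 3 deficient libraries lay far below all 6 WT libraries.

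*Tcrg-C4* was at 67.26, 70.10 and 64.59 FPKM in WT stage 2, 55.95, 63.85 and 40.17 in WT stage 3, and 0, 4.57 and 0.79 in deficient cells. It was the only constant gene whose 3 stage 3 libraries were all below the 3 WT stage 2 libraries. *Tcrg-C3* was lowest, at 7.02, 3.01 and 2.27 FPKM in WT stage 2 and 3.41, 2.59 and 2.55 FPKM in WT stage 3, and it was listed at 0 in all 3 deficient libraries. The plot of all members by library sets these values side by side.

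**Figure D1:**
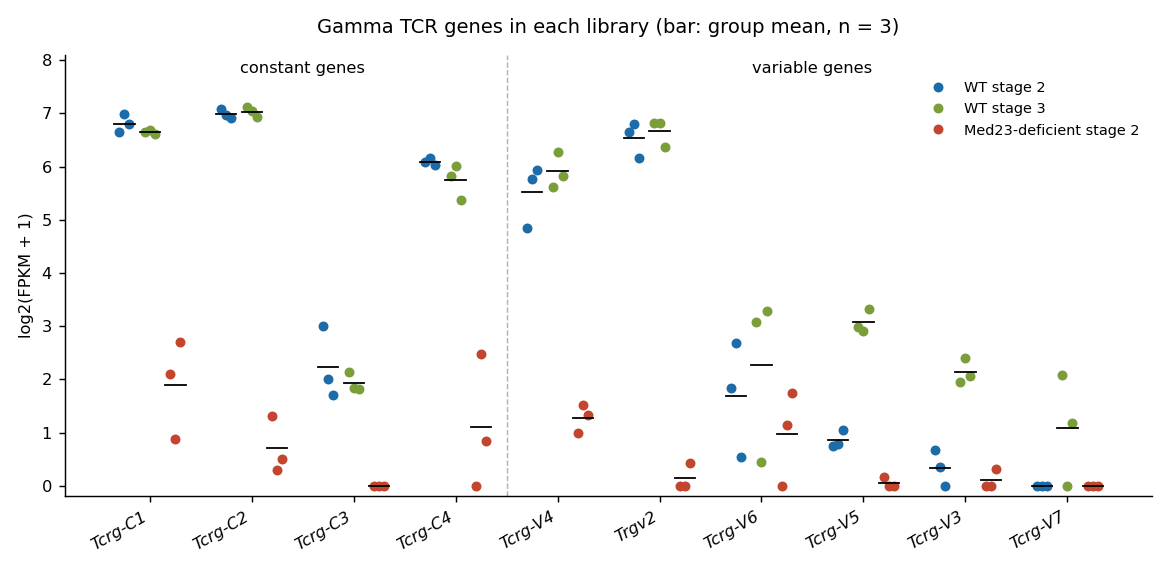
Level of each gamma TCR gene in each library, as log2(FPKM + 1), with points for the 9 libraries coloured by group and bars for the mean of 3 libraries. Constant genes other than *Tcrg-C3* and the V genes *Tcrg-V4* and *Trgv2* sit near the top in both WT groups and far lower in *Med23*-deficient cells, while *Tcrg-V5* and *Tcrg-V3* are highest in WT stage 3.

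Summed over the 4 constant genes, the level was 309 ± 13 FPKM (SD, n = 3) in WT stage 2, 286 ± 21.6 FPKM in WT stage 3 and 5.70 ± 0.942 FPKM in *Med23*-deficient stage 2 cells. The sum ranged from 296.65 to 322.51 FPKM in WT stage 2 and from 261.44 to 300.71 FPKM in WT stage 3, so these groups overlapped. Set against *Trac* in the same library, the gamma constant sum was 1.1 ± 0.0324 times *Trac* in WT stage 2, 0.854 ± 0.0651 times in WT stage 3 and 0.0159 ± 0.00403 times in the deficient cells. Here the WT stages did not overlap. *Trac* averaged 281 FPKM in WT stage 2 and 337 FPKM in stage 3, a difference that did not pass the test (adjusted p = 0.484, limma).

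*Tcrg-C2* and *Tcrg-C1* made up most of this sum in WT cells. *Tcrg-C2* was 40.7 ± 2.63% of it in WT stage 2 and 45.5 ± 1.54% in WT stage 3, *Tcrg-C1* 36.1 ± 3.5% and 35.0 ± 1.96%, *Tcrg-C4* 21.8 ± 0.0991% and 18.5 ± 2.95%, and *Tcrg-C3* 1.33 ± 0.835% and 0.995 ± 0.145% (SD, n = 3). The shares of *Tcrg-C2* and *Tcrg-C4* did not overlap between the WT stages, while those of *Tcrg-C1* and *Tcrg-C3* did. The remainder in the *Med23*-deficient cells had no fixed composition. *Tcrg-C1* was 69.1%, 14.7% and 82.0% of it and *Tcrg-C4* 0%, 81.2% and 11.8% in replicates 1, 2 and 3, out of sums of 4.79, 5.63 and 6.67 FPKM.

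The variable genes fell into abundant and scarce ones. *Trgv2*, the V gene of cluster 2, was at 99.92, 110.61 and 70.26 FPKM in WT stage 2 and 112.32, 111.81 and 81.55 in WT stage 3. In *Med23*-deficient cells it was listed at 0, 0 and 0.34 FPKM. *Tcrg-V4*, the main V gene of cluster 1, was at 27.70, 53.29 and 60.24 FPKM in WT stage 2, 48.20, 76.54 and 55.84 in WT stage 3, and 1, 1.85 and 1.52 in deficient cells. For both genes the WT stages overlapped and the deficient libraries did not reach either.

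*Gm16602* (*Tcrg-V1*), the V gene of cluster 4, was at 59.10, 35.79 and 27.95 FPKM in WT stage 2, 29.51, 20.63 and 13.27 in WT stage 3, and 0, 0.82 and 2.94 in deficient cells. Its WT groups overlapped, with 1 stage 3 library above the lowest stage 2 library. The difference of stage 3 from stage 2 in log2(FPKM + 1) was -0.92 ± 0.37 (SE, adjusted p = 0.362, limma). *Trgv2*, *Gm16602* and *Tcrg-V4* thus each lay in a different cluster with an abundant constant gene.

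*Tcrg-V5* and *Tcrg-V3* differed between the WT stages. *Tcrg-V5*, the V gene of the gamma delta T cells of the epidermis, was at 0.69, 0.73 and 1.07 FPKM in WT stage 2, 6.94, 6.48 and 8.96 in WT stage 3, and 0.12, 0 and 0 in *Med23*-deficient cells. *Tcrg-V3* was at 0.60, 0.27 and 0 FPKM in WT stage 2, 2.89, 4.28 and 3.17 in WT stage 3, and 0, 0 and 0.25 in deficient cells. Neither gene overlapped between the WT stages. *Tcrg-V3* shares sequence with *Tcrg-V1*, which averaged 40.9 FPKM in WT stage 2 and 21.1 FPKM in WT stage 3, and how reads were divided between them was not tested.

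*Tcrg-V6* and *Tcrg-V7*, also of cluster 1, varied widely between the WT stage 3 libraries. *Tcrg-V6* was at 2.57, 5.43 and 0.46 FPKM in WT stage 2, 7.4, 0.37 and 8.76 in WT stage 3, and 0, 1.21 and 2.37 in deficient cells, so that all 3 groups overlapped. *Tcrg-V7* was listed at 0 in all 6 stage 2 libraries of either genotype and at 3.26, 0 and 1.28 FPKM in WT stage 3. An antisense gene, *Gm43385* (19162036 to 19193558), overlaps *Tcrg-V7*, *Tcrg-V4*, *Tcrg-V6* and *Tcrg-V5*. It was at 0, 1.83 and 2.05 FPKM in WT stage 2, 5.12, 2.23 and 0.27 in WT stage 3, and at 0 in all 3 deficient libraries. The library kit keeps the strand of a read, but whether strand was used in counting is not given in the sources used here.

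The order of the levels was similar at both WT stages. In WT stage 2 the means ran from *Tcrg-C2* (126 FPKM) over *Tcrg-C1* (112), *Trgv2* (93.6), *Tcrg-C4* (67.3), *Tcrg-V4* (47.1), *Tcrg-C3* (4.10), *Tcrg-V6* (2.82), *Tcrg-V5* (0.830) and *Tcrg-V3* (0.290) to *Tcrg-V7* at 0. Among neighbours in that order, *Tcrg-C2* and *Tcrg-C1*, *Tcrg-C1* and *Trgv2*, *Tcrg-C3* and *Tcrg-V6*, *Tcrg-V6* and *Tcrg-V5*, and *Tcrg-V3* and *Tcrg-V7* overlapped in their 3 libraries. In WT stage 3 *Trgv2* (102 FPKM) stood above *Tcrg-C1* (99.9) and *Tcrg-V4* (60.2) above *Tcrg-C4* (53.3), with overlap in both pairs. The stage 3 means of *Tcrg-V5* (7.46 FPKM), *Tcrg-V6* (5.51) and *Tcrg-V3* (3.45) stood above that of *Tcrg-C3* (2.85), although *Tcrg-V6* and *Tcrg-V3* overlapped with *Tcrg-C3*.

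Because each cluster has its own constant gene, V and C can be compared within it. In cluster 1 the summed V level was 0.449 ± 0.124 of the *Tcrg-C1* level in WT stage 2 and 0.747 ± 0.0780 in WT stage 3 (SD, n = 3), without overlap. For its main V gene alone, the ratio of *Tcrg-V4* to *Tcrg-C1* was 0.417 ± 0.132 and 0.601 ± 0.133, with overlap. In cluster 2 the ratio of *Trgv2* to *Tcrg-C2* was 0.743 ± 0.151 and 0.779 ± 0.0945, with overlap. In cluster 3 *Tcrg-V3* was at 0.0584 ± 0.0506 of *Tcrg-C3* in WT stage 2 and 1.25 ± 0.403 in WT stage 3, without overlap, while *Tcrg-C3* itself overlapped between the stages. Both genes of this ratio were low and share stretches of sequence with more abundant genes, and how reads were divided was not tested. In cluster 4 the ratio of *Gm16602* to *Tcrg-C4* was 0.607 ± 0.238 and 0.394 ± 0.116, with overlap.

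**Figure D2:**
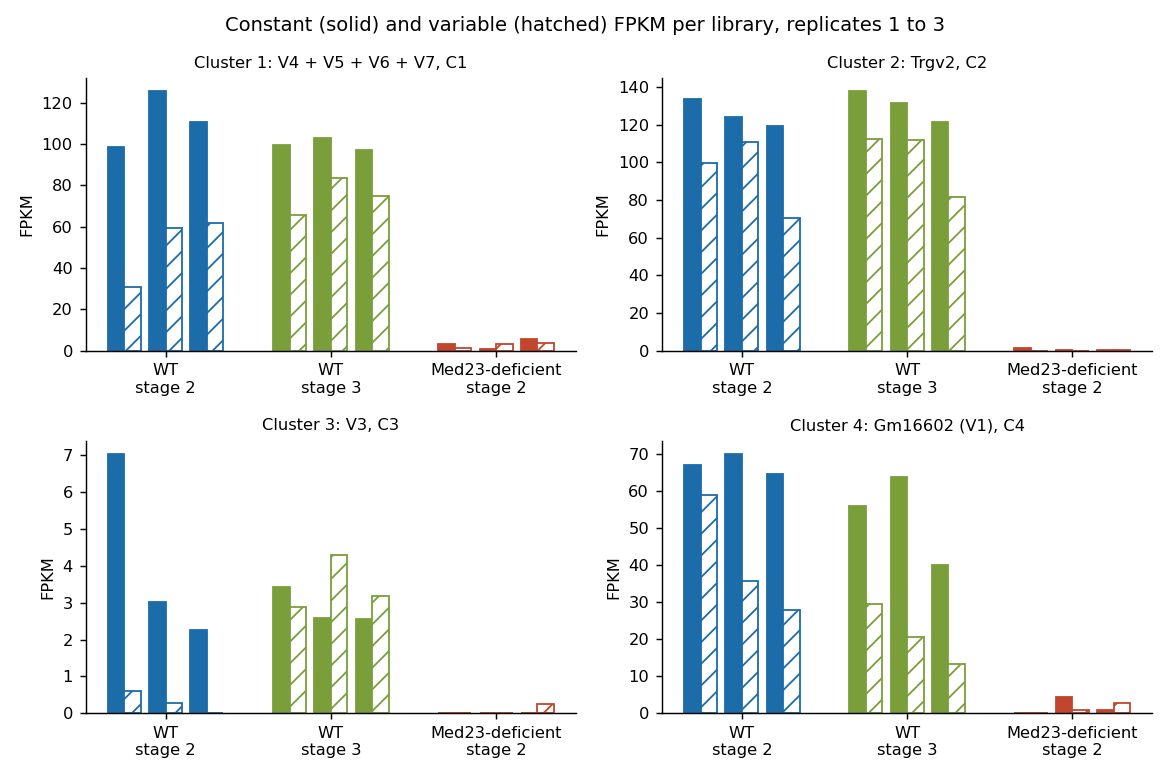
Constant (solid bars) and variable (hatched bars) FPKM of each cluster in each library, with the 3 replicates of a group side by side and an FPKM axis that starts at 0 in each panel. In clusters 1, 2 and 4 both kinds of bar stand high in the 6 WT libraries and near 0 in *Med23*-deficient cells, and in cluster 3 the V bars are tall in WT stage 3 alone.

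The member V genes thus differed in their share of the summed member V level. That sum leaves out *Gm16602*, which averaged 40.9 FPKM in WT stage 2 and 21.1 FPKM in WT stage 3. *Trgv2* made up 64.7 ± 11.4% of the summed FPKM of the 6 member V genes in WT stage 2 and 56.4 ± 5.48% in WT stage 3, and *Tcrg-V4* 32.7 ± 12.3% and 33.3 ± 6.05%. *Tcrg-V5* was 0.588 ± 0.199% in WT stage 2 and 4.23 ± 1.23% in WT stage 3, and *Tcrg-V3* 0.205 ± 0.232% and 1.91 ± 0.282%. The first 2 overlapped between the WT stages and the last 2 did not. In the deficient cells these sums were 1.12, 3.06 and 4.48 FPKM.

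The comparison of WT stage 3 with WT stage 2 asks what changes as the cells acquire NK1.1. A limma fit on log2(FPKM + 1) was run across all 20689 genes above 0 in at least 1 of the 6 libraries, and all 10 members entered it. A fold change of at least 2 with an unadjusted p of at most 0.05 was met by 2 members, *Tcrg-V5* and *Tcrg-V3*, both higher in stage 3. Among all genes 1.7% met it as higher and 1.9% as lower, and no member met it as lower. The difference in log2(FPKM + 1) was 2.20 ± 0.22 (SE) for *Tcrg-V5* and 1.80 ± 0.28 for *Tcrg-V3*. With any 1 library left out, it stayed between 2.08 and 2.30 for *Tcrg-V5* and between 1.63 and 1.97 for *Tcrg-V3*. *Tcrg-V7* had a difference of 1.09 ± 0.50, which was 0.59 without the first stage 3 library and 1.64 without the second.

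The constant genes moved little between the WT stages in the limma fit. The differences were -0.15 ± 0.11 for *Tcrg-C1*, 0.05 ± 0.09 for *Tcrg-C2*, -0.30 ± 0.37 for *Tcrg-C3* and -0.36 ± 0.17 for *Tcrg-C4* (SE, log2(FPKM + 1)). *Trgv2* (0.13 ± 0.21), *Tcrg-V4* (0.39 ± 0.32) and *Tcrg-V6* (0.58 ± 0.92) also stayed within a fold of 2. In all, 2 of the 10 members had every stage 3 library above every stage 2 library, against 7.36% of all genes tested, and 1, *Tcrg-C4*, had every stage 3 library below, against 10.4%.

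The comparison of *Med23*-deficient with WT stage 2 cells asks what differs between the 2 genotypes at the same surface stage. It shares the WT stage 2 libraries with the comparison above. Of the 10 members, 9 were above 0 in at least 1 of these 6 libraries, and *Tcrg-V7* was not. Among the 9 tested, 6 met the fold and p rule, all lower, beside 1.32% of the 20674 genes tested. They were the 4 constant genes, *Trgv2* and *Tcrg-V4*. Since the members were chosen from this contrast, nothing is read from the excess.

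The differences in log2(FPKM + 1) were -6.40 ± 0.22 (SE) for *Trgv2*, -6.28 ± 0.27 for *Tcrg-C2*, -4.99 ± 0.60 for *Tcrg-C4*, -4.92 ± 0.45 for *Tcrg-C1*, -4.23 ± 0.32 for *Tcrg-V4* and -2.24 ± 0.38 for *Tcrg-C3*. *Trgv2*, *Tcrg-C2*, *Tcrg-C4* and *Tcrg-C1* ranked 1, 2, 3 and 4 among all genes tested by the size of the decrease, *Gm16602* ranked 7 and *Tcrg-V4* ranked 8. On the FPKM scale the mean left in deficient cells was 2.87% of the WT stage 2 mean for *Tcrg-C1*, 0.563% for *Tcrg-C2*, 2.65% for *Tcrg-C4*, 3.09% for *Tcrg-V4* and 0.121% for *Trgv2*. No fold is given for *Tcrg-C3*, which was listed at 0. In total 7 members, these 6 and *Tcrg-V5*, had every deficient library below every WT stage 2 library, against 8.37% of all genes tested.

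**Figure D3:**
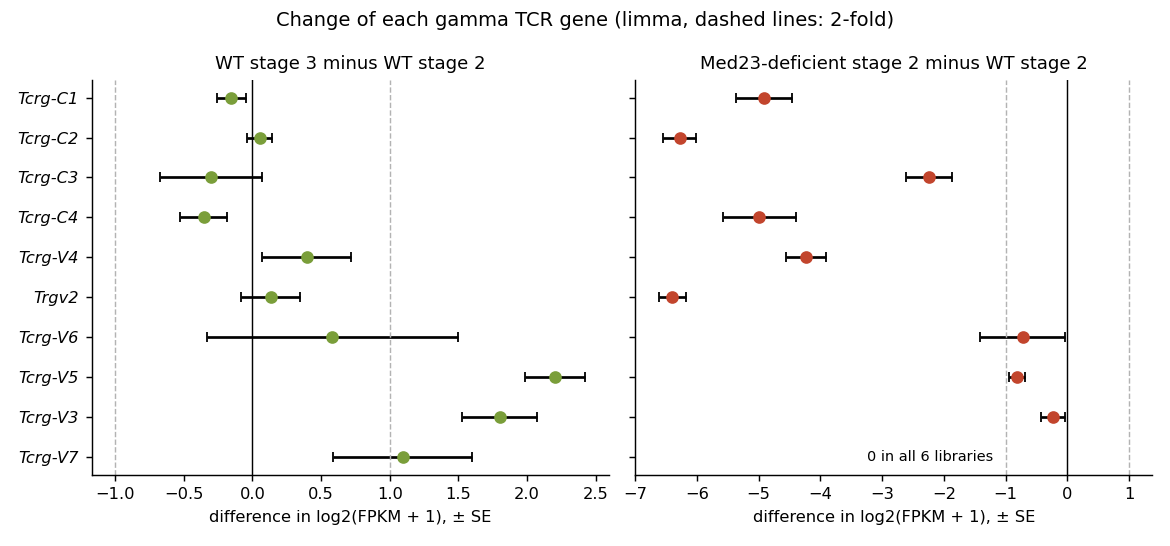
Difference in log2(FPKM + 1) of each gamma TCR gene, with bars for the SE from limma (3 libraries a group), for WT stage 3 minus WT stage 2 (left) and *Med23*-deficient minus WT stage 2 (right, on a wider axis); dashed lines mark a fold of 2. On the left *Tcrg-V5* and *Tcrg-V3* stand highest and the constant genes lie near 0, and on the right the constant genes, *Tcrg-V4* and *Trgv2* lie between -6.40 and -2.24.

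The scarce V genes differed less on the scale of log2(FPKM + 1). In the deficient cells *Tcrg-V5* was lower by -0.81 ± 0.13, *Tcrg-V6* by -0.72 ± 0.69 and *Tcrg-V3* by -0.23 ± 0.19 in log2(FPKM + 1), none of them past a fold of 2 on that scale. At these levels, below 3 FPKM in the WT stage 2 mean, the scale of log2(FPKM + 1) understates a fold. On the FPKM scale the mean left in deficient cells was 4.82% of that in WT stage 2 for *Tcrg-V5*, 28.7% for *Tcrg-V3* and 42.3% for *Tcrg-V6*. The 2 groups overlapped for *Tcrg-V3* and *Tcrg-V6* and not for *Tcrg-V5*. With a pseudocount of 0.1 the difference of *Tcrg-V5* was -2.82, and it then met the fold and p rule.

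Other genes of the locus were read beside the members. The J segments are models of 60 or 61 bases, and their FPKM varied widely between replicates. *Trgj4*, of cluster 4, was at 28.76, 27.34 and 6.06 FPKM in WT stage 2, 5.53, 10.22 and 3.79 in WT stage 3, and at 0 in all 3 deficient libraries. *Trgj2*, of cluster 2, was at 14.33, 12.85 and 0 FPKM, then 2.38, 13.48 and 13.48 FPKM, then 0 throughout. *Trgj1*, of cluster 1, was at 9.66, 0.73 and 0.73 FPKM in WT stage 2, 7.73, 2.51 and 7.12 in WT stage 3, and 17.75, 0 and 0 in deficient cells. *Trgj1* and *Trgj2* are 93.3% identical, which their printed letters show, with bases that differ from *Trgj1*, counted from the 3′ end, in capitals (chr13:19210343-19210402 plus, chr13:19311245-19311304 minus and chr13:19342152-19342212 plus).
Trgj1: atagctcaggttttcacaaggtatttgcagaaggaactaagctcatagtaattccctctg
Trgj2: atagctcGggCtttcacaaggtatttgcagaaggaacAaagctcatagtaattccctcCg
Trgj4: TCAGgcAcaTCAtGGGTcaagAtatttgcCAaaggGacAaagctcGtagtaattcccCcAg

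Of the genes flanking the locus, *Stard3nl* and *Vps41* overlapped between WT and deficient stage 2 cells. *Stard3nl*, which begins 4920 bases beyond *Tcrg-C4*, was at 1.78, 0.85 and 1.78 FPKM in WT stage 2, 1.66, 2.32 and 1.56 FPKM in WT stage 3 and 1.70, 1.57 and 1.16 FPKM in deficient cells. *Vps41*, a vesicle tethering gene 311215 bases before *Tcrg-V7*, averaged 17.3 ± 1.97, 12.2 ± 1.26 and 15.3 ± 2.67 FPKM (SD, n = 3). For deficient against WT stage 2 cells the difference in log2(FPKM + 1) was 0.02 ± 0.28 (SE, adjusted p = 0.978, limma) for *Stard3nl* and -0.17 ± 0.15 (adjusted p = 0.731) for *Vps41*. *Amph*, *Gm42683* and *Gpr141* were below 1 FPKM in every library. *Gm42683*, which lies within *Stard3nl*, was at 0.28, 0.94 and 0.45 FPKM in WT stage 2 and 0, 0.22 and 0.26 FPKM in deficient cells, without overlap (-0.41 ± 0.19 SE, adjusted p = 0.564, limma).

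The partners of a gamma chain were examined next. *Trdc*, the delta chain constant gene, was between 0 and 0.38 FPKM in all 9 libraries. *Trdv2-2*, the only delta variable gene of those listed that was in the table, was at 1.84 FPKM in 1 WT stage 2 library, at 2.30 FPKM in 1 deficient library and at 0 in the other 7. In WT cells a gamma constant sum of 261.44 to 322.51 FPKM thus stood beside a delta constant gene at or near 0. The alpha and beta constant genes were high in every library, with *Trbc1* between 125.49 and 266.86 FPKM. The CD3 genes *Cd3d*, *Cd3e*, *Cd3g* and *Cd247*, which encode the signalling chains shared by both receptor types, summed to 397.3 to 469.14 FPKM in WT stage 2, 372.85 to 456.63 FPKM in WT stage 3 and 411.89 to 484.21 FPKM in deficient cells. In limma none of the 4 alpha, beta and delta constant genes and none of the 4 CD3 genes passed an adjusted p of 0.05 in either comparison. At an unadjusted p of 0.05, *Trbc1* and *Cd247* were lower in WT stage 3 and *Trac* was higher in deficient cells.

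The sum of the listed markers of gamma delta T cells differed between the groups, in another pattern than the gamma genes, but not every marker followed it. The 6 markers listed (*Trdc*, *Sox13*, *Cd163l1*, *5830411N06Rik*, *Blk* and *Etv5*) summed to 20.37 to 23.62 FPKM in WT stage 2, 4.22 to 6.99 FPKM in WT stage 3 and 3.99 to 6.94 FPKM in deficient cells, where *Blk* and *5830411N06Rik* were at 0 throughout. *Etv5* went the other way, with means of 1.17 FPKM in WT stage 2, 1.94 in WT stage 3 and 2.62 in deficient cells. *Trdc* was near 0 throughout, and *Sox13* overlapped between the stage 2 groups. *Cd163l1*, a scavenger receptor of IL-17-producing gamma delta cells, was at 4.61, 6.17 and 8.26 FPKM in WT stage 2, 0.81, 0.99 and 0.60 in WT stage 3, and 0, 0.02 and 0 in deficient cells. The gamma constant genes, by contrast, were as high in WT stage 3 as in WT stage 2 within their spread, or nearly so for *Tcrg-C4*. Whether other cells contributed to the gamma transcripts was not tested. In bulk RNA, fewer cells of a type and less RNA per cell cannot be told apart.

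Markers of other cells were low. For double-positive thymocytes, the 8 markers summed to at most 5.05 FPKM in any library, with *Cd24a* at 0 to 0.72 FPKM. For myeloid cells the sum reached 6.19 FPKM in WT stage 3, mainly from *Fcgr3* (2.51 to 3.86 FPKM), which NK1.1-positive cells can also express, and it was at most 2.32 FPKM elsewhere. The B cell genes *Cd79a* and *Cd79b* were at 0 to 0.50 FPKM, while *Ighm* was at 31.19 to 49.70 FPKM in WT stage 2, 46.02 to 55.10 FPKM in WT stage 3 and 85.59 to 104.14 FPKM in deficient cells. The erythroid gene *Hbb-bs* was at 0 to 0.75 FPKM.

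Genes of NKT17 cells, the iNKT subset that makes IL-17, were read from the same fits. This list, like the other lists, was written with earlier results of these data known, so nothing is read from an excess. In WT stage 3 against WT stage 2, 3 of 8 tested genes fell at an adjusted p of 0.05 (limma) and none rose, beside 0.914% lower and 0.759% higher among all genes. The median difference of the list was -1.76 in log2(FPKM + 1), against -0.01 over all genes tested. *Sdc1*, the NKT17 surface marker syndecan-1, was at 5.94, 4.49 and 5.84 FPKM in WT stage 2 and was listed at 0 in all 3 stage 3 libraries (adjusted p = 0.0115). *Blk* and *Il1r1* were the other genes that fell.

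In *Med23*-deficient against WT stage 2 cells, 2 of the 8 NKT17 genes, *Blk* and *Sdc1*, fell at an adjusted p of 0.05 and none rose, beside 0.145% lower and 0.0677% higher among all genes. The list's median was -1.95, against -0.01 over all genes. At the fold and p rule 6 of the 8 were lower. *Sdc1* was at 0, 0 and 0.03 FPKM in deficient cells (-2.66 ± 0.23 SE, adjusted p = 0.0304). *Il23r*, a receptor chain for IL-23, was at 5.48, 3.13 and 6.36 FPKM in WT stage 2 and was listed at 0 in all 3 deficient libraries (adjusted p = 0.0511). The 8 NKT17 genes summed to 23.01 to 29.56 FPKM in WT stage 2, at most 1.97 FPKM in WT stage 3 and at most 1.38 FPKM in deficient cells, while the gamma constant sum was low in the deficient cells alone. The heatmap of gamma and list genes shows both patterns.

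**Figure D4:**
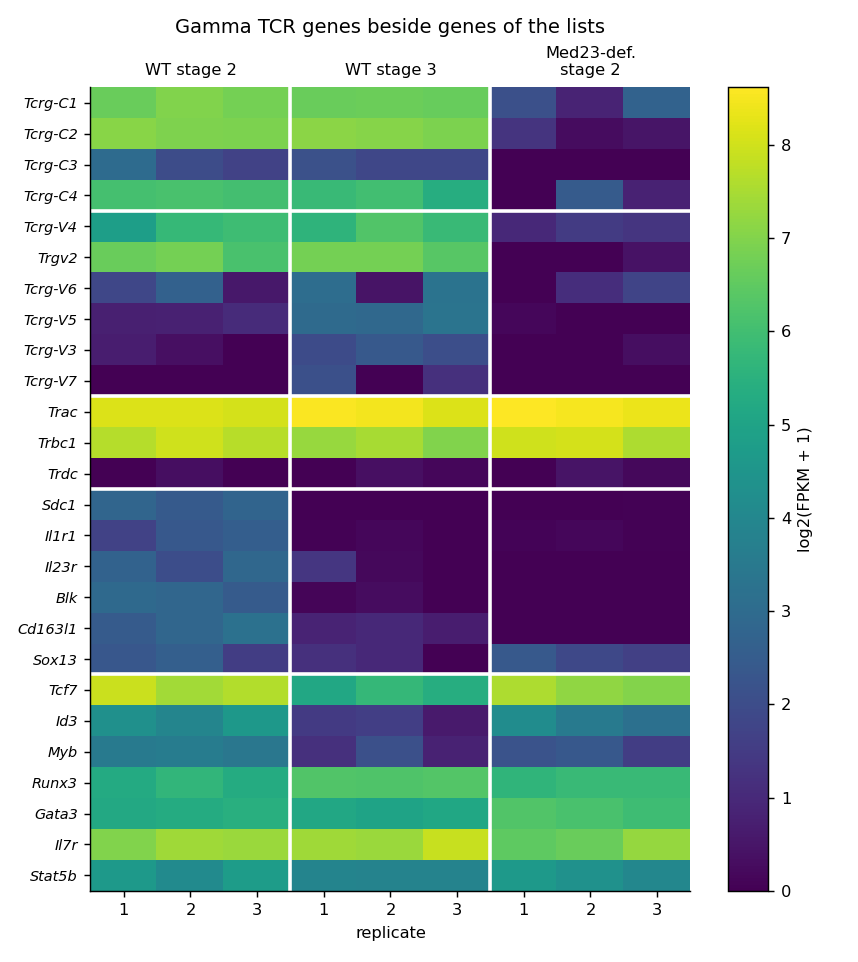
Levels in log2(FPKM + 1), as colour, of the 10 gamma TCR genes and genes of the lists (rows) in the 9 libraries (columns, replicates 1 to 3 of each group). From the top, white lines part constant genes, variable genes, alpha, beta and delta constant genes, NKT17 and gamma delta T cell genes, and regulators; *Sdc1* and *Blk* are dark in WT stage 3, where *Tcrg-C1* and *Tcrg-C2* remain bright.

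The list of gamma delta T cell genes had 8 genes, of which *Blk* is also on the NKT17 list. In WT stage 3, 2 of 8 (*Blk* and *Cd163l1*) fell at an adjusted p of 0.05 and none rose, beside 0.914% lower and 0.759% higher among all genes. In deficient cells 2 of 8 (*Blk* and *Cd163l1*) fell, beside 0.145% lower among all genes. The medians were -1.22 and -0.66 in log2(FPKM + 1). *Sox13*, a transcription factor of gamma delta cells, was at 4.05, 5.07 and 1.95 FPKM in WT stage 2, 1.31, 0.98 and 0 in WT stage 3, and 4.32, 2.69 and 2.10 in deficient cells, so that the deficient cells overlapped with WT stage 2.

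Genes of the pathway known to open the locus were present in all groups. For the IL-7 receptor and STAT5 list, none of 6 genes passed an adjusted p of 0.05 in either comparison (limma). At an unadjusted p of 0.05, *Jak1* was higher and *Stat5b* lower in WT stage 3, and none of the 6 met it in deficient cells. *Il7r*, the IL-7 receptor alpha chain, was at 127.19, 168.50 and 160.02 FPKM in WT stage 2, 165.18, 160.63 and 235.09 in WT stage 3, and 88.95, 98.50 and 152.98 in deficient cells (-0.45 ± 0.23 SE against WT stage 2, adjusted p = 0.609). *Stat5b* averaged 22.4 ± 5.24, 13.6 ± 0.180 and 19.6 ± 4.94 FPKM (SD, n = 3).

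Among 11 transcription factors known to bind or control the locus, 1 rose and 4 fell between the WT stages at an adjusted p of 0.05 (limma), beside 0.759% higher and 0.914% lower among all genes. *Runx3* rose from 42.1 ± 6.94 to 77.0 ± 1.83 FPKM (0.87 ± 0.12 in log2(FPKM + 1), SE, adjusted p = 0.0399). *Tcf7*, *Lef1*, *Id3* and *Myb* fell. *Tcf7*, which encodes TCF-1, went from 204 ± 36.3 to 42.7 ± 8.99 FPKM (-2.23 ± 0.19, adjusted p = 0.0118), and *Id3*, an inhibitor of E proteins, from 18.8 ± 4.5 to 1.45 ± 0.799 FPKM (-3.05 ± 0.32, adjusted p = 0.0188).

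In *Med23*-deficient cells none of the 11 passed an adjusted p of 0.05 (limma), and 2 were higher and 3 lower at an unadjusted p of 0.05. Among all genes 1981 of 20674 met that unadjusted p in either direction. *Myb* was at 10.84, 11.31 and 9.80 FPKM in WT stage 2 against 3.66, 4.21 and 1.96 in deficient cells, without overlap (-1.48 ± 0.24 SE, adjusted p = 0.103). *Gata3*, the factor of T helper 2 and NKT2 cells, was at 35.81, 38.10 and 42.47 FPKM and at 77.18, 69.69 and 60.69 FPKM (0.82 ± 0.12, adjusted p = 0.0786). The adjusted p was 0.479 for *Runx3*, 0.342 for *Id2* and 0.295 for *Cbfb*. Of the 10 recombination and end joining genes, none passed in either comparison, and 1 was lower in each at an unadjusted p of 0.05. Between the WT stages 2738 of 20689 genes met that unadjusted p in either direction. *Rag1* and *Rag2*, which cut the segments before joining, were at 0.15 to 1.58 and 0 to 0.26 FPKM over all libraries.

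Leaving out 1 library lowered the list calls. Of 50 list genes tested, 9 passed an adjusted p of 0.05 between the WT stages, and with 1 library left out between 0 and 6 did; none passed without the third WT stage 2 library or the third WT stage 3 library. In deficient against WT stage 2 cells 3 passed, and 0 did with any 1 library left out (limma). With all libraries 17 of 50 were under an unadjusted p of 0.05, beside 1981 of all 20674 genes tested.

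The genes whose levels most resembled the gamma constant sum were sought over the 9 libraries by Pearson correlation of log2(FPKM + 1), among genes with a mean of at least 1 FPKM and a name other than a clone identifier. The top 5 were *Trgv2* (r = 0.998), *Tcrg-C2* (0.993, itself part of the sum), *Adam19* (0.993), *Capg* (0.987) and *Tcrg-V4* (0.983). All 9 points share a split into 6 WT and 3 deficient libraries, which sets these values. Over the 6 WT libraries alone r was 0.524 for *Trgv2*, 0.290 for *Tcrg-C2*, -0.546 for *Adam19*, 0.692 for *Capg* and -0.192 for *Tcrg-V4*.

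*Adam19*, a membrane metalloprotease, was at 46.93, 50.89 and 46.34 FPKM in WT stage 2, 56.88, 51.06 and 56.98 in WT stage 3, and 9.43, 9.95 and 12.27 in deficient cells. *Capg*, an actin capping protein, averaged 34.1 ± 3.59, 34.3 ± 6.11 and 9.42 ± 0.748 FPKM (SD, n = 3). Both kept a measurable level in the deficient cells. There *Trgv2* was listed at 0 in 2 of 3 libraries. *Tcrg-C2* was at 0.23 to 1.48 FPKM and *Tcrg-V4* at 1 to 1.85 FPKM.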

How the data were processed

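Per the study's methods and the labels, total RNA of sorted thymic iNKT cells was made into stranded libraries with a kit for very small inputs. Reads were trimmed with Trimmomatic 0.36, aligned to mm10 with HISAT2 and quantified with StringTie on GENCODE vM12, keeping reads that hit no more than 2 loci. The authors deposited 1 table of FPKM per gene and library, rounded to 2 decimals, with replicates kept apart. It holds no counts, so the depth of a library and the counting error of a value are unknown. One row, *Gm23935*, takes 62.2% to 71.9% of the summed FPKM of a library.

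Values of log2(FPKM + 1) were fitted with limma 3.58.1 in R 4.3.3 (lmFit, eBayes with a mean-variance trend) on the 6 libraries of each comparison, with Benjamini-Hochberg adjustment over all genes above 0 in at least 1 of them. The scripts were tested on simulated data, in which the false share of calls past the adjusted threshold was above its nominal level, so adjusted p-values close to 0.05 may be too small. limma was used in place of the study's Ballgown test, and a fit after Ballgown is an alternative. A difference on the log2(FPKM + 1) scale understates the fold of a low gene. A test over 3 against 3 libraries by exact permutation cannot go below p = 0.1, so none was run.

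The gamma genes, the lists of other genes and the markers were chosen with earlier results of these data known. Genes are named if they are gamma TCR members, lie within 500 kb of them, are on a list or are among the 5 most correlated with the constant sum. *Il17a*, *Il17f* and 5 of the 6 listed delta variable genes were not used here for lack of a row under those names, and 1 other listed gene is not reported here. Sequences, identities (global alignment, Biopython 1.88) and shared stretches of 50 and 100 bases were computed from GENCODE vM21 transcripts. Alternatives changed the pseudocount, filter, scaling, model, block and libraries.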

Additional observations from a re-analysis of the deposited data

How the results depend on the processing

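Depth is unknown, so values near 0 cannot be given a counting error, and *Tcrg-C1*, *Tcrg-C2* and *Tcrg-C3* share stretches of sequence. No called member changed sign under any alternative run. Between the WT stages 2 members met the fold and p rule, and 3 with all 9 libraries in 1 fit. With 1 library left out 2 to 3 did, the third being *Tcrg-V7* without the second WT stage 3 library. In the fit after Ballgown 4 did, 3 higher and 1 lower. There *Tcrg-V4* was also higher (1.24 in log2(FPKM + 1)), and the lower one was the constant gene *Tcrg-C3* (-1.21). In deficient against WT stage 2 cells 6 did, 7 with a pseudocount of 0.1, the seventh being *Tcrg-V5*, and 6 to 6 with 1 library left out. Between the WT stages 745 genes met the rule and 1423 with a pseudocount of 0.1, and in deficient cells 437 and 971.

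Counts past an adjusted p of 0.05 depended more on the setting. Between the WT stages they were 346 genes, 230 with no filter, 224 on the TPM scale, 5 after Ballgown, 626 with all 9 libraries and 22 to 137 with 1 library left out, where the lowest was without the third WT stage 3 library. In deficient cells they were 44 genes, 143 among genes averaging 1 FPKM or more, 27 on the TPM scale without *Gm23935*, 1 after Ballgown, 176 with all 9 libraries and 1 to 8 with 1 library left out, where the lowest was without the second WT stage 2 library. Of the list genes, 9 passed between the WT stages, 5 with no filter, 15 with all 9 libraries and 0 to 6 with 1 library left out. After Ballgown 0 did, with 14 list genes among the 2363 genes under an unadjusted p of 0.05. In deficient cells 3 list genes passed, 5 with a pseudocount of 0.1, 8 among genes averaging 1 FPKM or more, 8 with all 9 libraries and 0 to 0 with 1 library left out. After Ballgown 0 did, with 11 list genes among the 1572 genes under an unadjusted p of 0.05. Fewer genes tested, or fewer or more libraries, are part of these alternatives; beyond that the cause was not tested. On the TPM scale the median difference of genes averaging 1 FPKM or more was -0.14 and -0.16 in the 2 comparisons, against -0.05 in both.

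Replicate numbers are shared between groups in the labels, but nothing says that a number marks a pair. The deviations of same-numbered libraries correlated at 0.0845, 0.031 and 0.161 (WT stages) and 0.0346, 0.00429 and 0.144 (deficient against WT stage 2). Those of libraries with different numbers ranged from -0.117 to 0.0306 (WT stages) and from -0.0865 to 0.0501 (deficient against WT stage 2). Whether the numbers mark pairs is not known, so the replicate block is given as an alternative. With the replicate block, 19 genes and 0 list genes passed an adjusted p of 0.05 between the WT stages and 0 and 0 in deficient cells (limma; 2735 and 1940 genes under an unadjusted p of 0.05, among them 24 and 19 list genes), while 2 and 6 members met the fold and p rule as before.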
